A study of Homo sapiens with 2 samples.

Results

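The genes described here are ATF4, its known targets and other genes of the amino acid stress response, 32 in all, taken from a table of 37364 genes by exact match of the gene name. Each of the 32 names had 1 row. The levels came from D407 cells, an established human cell line labelled as retinal pigment epithelium (RPE), with 1 library from cells treated with clusterin and 1 from control cells. Clusterin is a secreted chaperone glycoprotein. No source used here states its dose, how long it was applied or what the control cells received. Both groups are the same line in medium with serum. With 1 library per group there was no replicate check of any difference. In RNA from whole cultures, fewer cells expressing a gene and less RNA per cell cannot be told apart.

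ATF4 is the transcription factor of the integrated stress response. Kinases that sense missing amino acids, unfolded proteins in the endoplasmic reticulum, viral RNA or missing heme phosphorylate the initiation factor eIF2 alpha. General translation then falls while the ATF4 mRNA is translated more, so the ATF4 mRNA level and ATF4 activity need not move together. ATF4, often paired with a C/EBP protein, switches on amino acid transporters, enzymes that make asparagine, serine and glycine, mitochondrial folate enzymes, and later the stress factors DDIT3 (CHOP) and TRIB3.

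The library totals recovered from the deposited values were 33177097 reads for clusterin and 38236991 for the control. Levels are RPKM, reads scaled to transcript length and library total, so they can be compared between genes. A gene counted as measured at a mean of at least 1 RPKM, which 13244 genes reached. Of the 18 RPE identity genes looked up, 9 had a value of 0 with clusterin and in the control, including the visual cycle genes RPE65, RLBP1 and LRAT and the pigment genes TYR, TYRP1 and DCT, and 5 lay under the minimum. The 4 measured were RDH11, at 11.9 RPKM with clusterin and 13.2 in the control, MITF, at 9.88 with clusterin and 9.70 in the control, STRA6, at 7.98 with clusterin and 7.83 in the control, and BEST1, at 1.73 with clusterin and 2.14 in the control. A value of 0 does not show that a gene is not expressed: ATF6B, which most cell types express, is also listed at 0 in both libraries. Of 10 simple epithelial markers 6 were measured, the keratins KRT7, KRT8, KRT18 and KRT19 highest, KRT7 at 419.5 RPKM with clusterin and 406.6 in the control, while EPCAM and ESRP1 were listed at 0 and CDH1 stood at 0.0250 RPKM with clusterin and 0.0163 in the control. Of 10 fibroblast and smooth muscle markers 5 were measured, S100A4 highest at 562 RPKM with clusterin and 571 in the control, then VIM, LUM and DCN. The fifth, COL1A1, stood at only 0.92 RPKM with clusterin and 1.15 in the control. COL1A2, COL3A1, ACTA2, TAGLN and PDGFRB lay under the minimum. The summed level of the fibroblast and smooth muscle list was 744 RPKM with clusterin and 755 in the control, most of it from S100A4. That of the simple epithelial list was 1010 RPKM with clusterin and 992 in the control, most of it from the keratins. As a few genes make up each sum, the sums do not compare cell types. None of 6 endothelial and none of 6 leukocyte markers was measured, and of 6 neuron and photoreceptor markers 1 was, TUBB3, at 2.31 RPKM with clusterin and 1.73 in the control. CLU, the gene of clusterin itself, stood at 33.8 RPKM with clusterin and 35.9 in the control. As the protein was added from outside, this level does not check the labels.

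The amino acid stress genes were expressed in both libraries, and none was 1.5-fold apart with a pseudocount of 1 RPKM. Of the 32 genes, 31 were measured, ATF3 only through its level in the control. The exception, ALDH1L2, a mitochondrial folate enzyme, stood at 0.148 RPKM with clusterin and 0.201 in the control, from 37 clusterin and 58 control reads. The measured genes had a median level of 9.05 RPKM with clusterin and 9.25 in the control, and over all measured genes the medians were 5.61 RPKM with clusterin and 5.93 in the control. Of the 31, 0 were 2-fold and 0 were 1.5-fold apart on the scale log2((clusterin RPKM + 1)/(control RPKM + 1)). On that scale, over all measured genes, 0.113% were 2-fold lower and 0.106% were 2-fold higher with clusterin, while 0.498% were 1.5-fold lower and 0.37% were 1.5-fold higher. Without the pseudocount 1 of the 31, ATF3, was 1.5-fold lower and 0 were 1.5-fold higher, beside 1.9% and 0.808% of all measured genes. The median on that scale was -0.062 for the 31 genes and -0.059 for all measured genes.

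Most measured genes lay below 0, so the directions below are read against the median of all genes. Of the 31 genes, 25 lay below 0 (80.6%), beside 70.2% of all measured genes. With the control rescaled so that the median of all genes was 0, the split was 16 below and 15 above 0. Relative to the median of all measured genes, 16 lay below and 15 above, beside 50% of all genes below by construction. Without a pseudocount, the median RPKM ratio over 13110 measured genes with recovered reads was 0.952, called the common offset here. Exact Clopper-Pearson 95% intervals of each gene's ratio, which cover counting error only, were set beside it. The interval lay wholly below the offset for 5 genes, ATF3, DDIT3, SLC1A4, PSAT1 and ATF4, and wholly above it for 5 others, CEBPB, CTH, CBS, SLC7A5 and SLC38A2. Over all genes with recovered reads these shares were 10.5% and 12.1%, and 5 of 31 is 16.1%. Genes with more reads pass more easily. Among genes with 10000 or more reads over both libraries, 23.8% lay below and 29.5% above, and of the 5 listed genes in that range 1 lay below and 2 above. In the range from 500 to 2000 reads, where 9.45% of genes lay below and 10.2% above, 2 of 12 listed genes did in each direction.

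**Figure D1:**
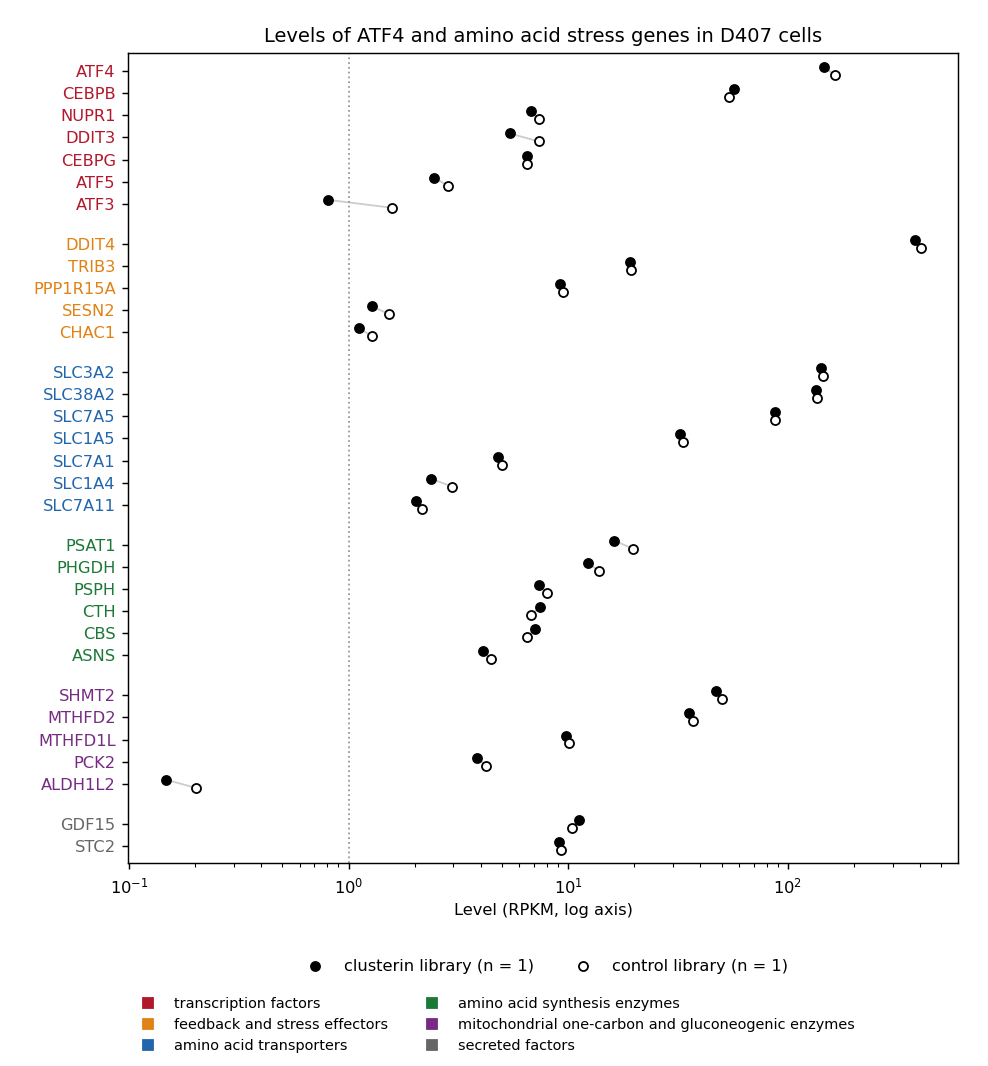
Level of each of the 32 genes in RPKM (log axis) in the clusterin library (filled, upper) and the control library (open, lower), 1 library each, grouped by role; the dotted line marks 1 RPKM. DDIT4 is the highest at 381 RPKM with clusterin and 402 in the control, ALDH1L2 the lowest at 0.148 with clusterin and 0.201 in the control, and the widest gap between the points is that of ATF3.

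**Figure D2:**
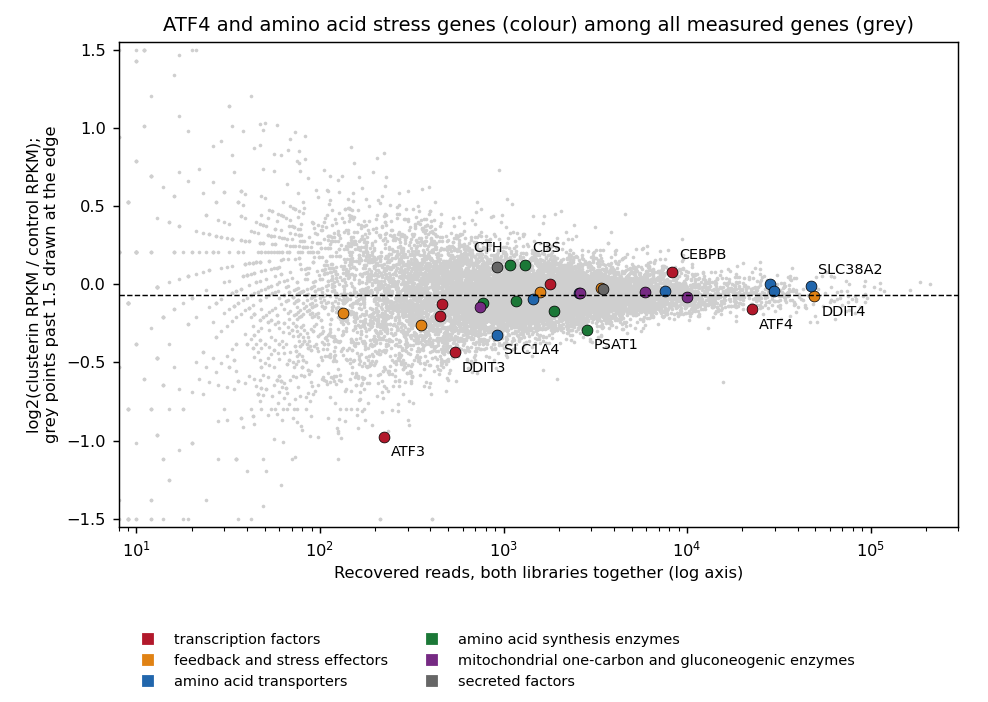
Clusterin over control difference on the log2 scale without pseudocount (vertical axis) against the reads of both libraries together (log horizontal axis), with measured ATF4 and amino acid stress genes in colour and all other measured genes in grey. The dashed line is the common offset; ATF3 and PSAT1 lie below the central 95% of genes with similar reads, and the other coloured points lie within it.

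ATF4 and its C/EBP partners bind the C/EBP-ATF response element, whose core reads TGATGNAA, with N any base. In RefSeq promoter windows (build GRCh38.p14, 250 bases before to 50 after a start), 27 of the 32 genes were matched, with 47 windows. ALDH1L2, NUPR1, PSPH, SHMT2 and SLC7A11 were not matched. The core, searched on both strands, was present in 11 of the 47 windows (23.4%), against 3.62% of all 35116 windows and 1.84% of the windows of measured genes. Those windows belonged to 9 genes, ATF3, SLC1A4, MTHFD1L, ASNS, SLC3A2, SLC7A1, CHAC1, CEBPG and SLC1A5, and the 3 windows of MTHFD1L share 1 site. With the free base fixed, as TGATGCAA, 5 of the 27 genes held it (18.5%), against 0.634% of measured genes. As the list gathers known ATF4 targets, this describes the list and is no result of the treatment. A match of letters is not evidence of a bound site.

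The upstream sequence is shown for 3 of the 9 genes, picked after their values were seen, as examples of the element. ATF3 had the lowest ratio of the 32 genes, while the ratio intervals of ASNS and CHAC1 included both 1 and the offset. The interval of CHAC1, which rests on few reads, also overlapped that of ATF3. Each run gives the 250 bases before the start on the gene's strand, 5′ to 3′, with the match in capitals. ATF3 lies at chr1:212565157-212565406 on the plus strand, with the match starting 191 bases before the start, at -191. ASNS lies at chr7:97872409-97872658 on the minus strand, with the match starting at -68. CHAC1 lies at chr15:40953221-40953470 on the plus strand, where the match starts at -209 and is on the opposite strand, so it is read as TTGCATCA.
ATF3: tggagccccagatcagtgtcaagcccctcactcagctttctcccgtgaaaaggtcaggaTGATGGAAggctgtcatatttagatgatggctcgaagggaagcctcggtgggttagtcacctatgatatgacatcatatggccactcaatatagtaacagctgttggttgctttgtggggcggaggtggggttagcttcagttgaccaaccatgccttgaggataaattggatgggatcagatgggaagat
ASNS: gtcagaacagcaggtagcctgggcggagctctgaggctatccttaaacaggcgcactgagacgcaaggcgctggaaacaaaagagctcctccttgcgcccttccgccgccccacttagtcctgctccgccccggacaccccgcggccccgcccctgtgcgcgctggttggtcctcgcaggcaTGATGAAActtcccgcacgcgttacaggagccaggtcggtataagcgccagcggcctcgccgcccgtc
CHAC1: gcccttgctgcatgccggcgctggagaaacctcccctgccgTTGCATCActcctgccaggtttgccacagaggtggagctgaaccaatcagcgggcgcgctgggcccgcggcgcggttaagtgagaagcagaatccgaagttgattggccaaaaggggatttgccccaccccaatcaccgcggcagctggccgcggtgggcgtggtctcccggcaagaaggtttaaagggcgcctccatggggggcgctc

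Of the 7 transcription factors, 5 lay below the median of all genes, and their median log2 difference was -0.15. They held the lowest ratio, that of ATF3, and 1 of the 5 above the offset, that of CEBPB. ATF4 itself was abundant, at 146 RPKM with clusterin and 163 in the control, and ranked 312 with clusterin and 294 in the control among measured genes. Its ratio was 0.898 (0.874 to 0.922) from 9818 clusterin and 12607 control reads, and of 233 genes with similar read numbers (within 1.5-fold) 4.29% lay lower. Pseudogenes named after ATF4 are listed in RefSeq, so its level carries uncertainty about shared reads. How alike their sequences are was not tested. In the authors' deposited table ATF4 had a q of 2.27e-13, which compares these 2 libraries and counts read sampling error only.

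ATF3, a stress-induced repressor and partner of other bZIP factors, stood at 0.805 RPKM with clusterin, against 1.58 in the control. These levels rest on 68 clusterin and 154 control reads, a ratio of 0.509 (0.377 to 0.681). Only 0.235% of 1276 measured genes with similar reads lay lower. With clusterin ATF3 lay under the minimum of 1 RPKM, so it counted as measured only through its control level. The genes it is set beside passed the same minimum on their mean. ATF3 is a short-lived immediate early transcript that also answers to signals other than ATF4. On the log2 scale with a pseudocount of 1 its difference was -0.52, and without a pseudocount -0.97.

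DDIT3, which encodes CHOP, a factor that promotes death in prolonged stress, stood at 5.42 RPKM with clusterin and 7.33 in the control. Its ratio was 0.740 (0.620 to 0.882) from 212 clusterin and 330 control reads, and 2.56% of 2500 genes with similar reads lay lower. DDIT3 overlaps MARS, the methionyl-tRNA synthetase gene on the opposite strand, at 24.55 RPKM with clusterin and 24.95 in the control. No source used here states whether the counting used strand, so reads of the pair cannot be told apart where they overlap. The part of MARS reads in the DDIT3 result was not tested. MBD6 also overlaps DDIT3 on the opposite strand, at 0.835 RPKM with clusterin and 1.008 in the control. Among the other listed genes, SLC7A11, SHMT2 and PCK2 are overlapped on the opposite strand by genes under 1 RPKM in both libraries.

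CEBPB stood on the other side of the offset. This gene, a dimer partner of ATF4 and a regulator of inflammatory genes, stood at 56.9 RPKM with clusterin and 53.8 in the control. Its ratio of 1.06 (1.01 to 1.104), from 3977 clusterin and 4337 control reads, was the only one of the 31 whose interval lay above 1. The intervals of 9 lay below 1 and those of 21 included it. The shares of all genes on each side of 1 were not computed, and a count against 1 takes no account of the offset. Of 944 genes with similar reads, 93.5% lay lower. CEBPG, the smaller partner that lacks an activation domain, stood at 6.51 RPKM with clusterin and 6.50 in the control. Of the related genes outside the list, CEBPD stood at 35.01 RPKM with clusterin and 30.2 in the control, a ratio of 1.16 (1.08 to 1.25), and CEBPA at 2.32 with clusterin and 1.74 in the control, a ratio of 1.33 (1.08 to 1.645). CEBPD was named after its values were seen.

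ATF5, a relative of ATF4 that guards mitochondrial proteostasis, stood at 2.46 RPKM with clusterin and 2.83 in the control. NUPR1, a small stress-induced chromatin protein, stood at 6.78 RPKM with clusterin and 7.398 in the control. The ratio intervals of ATF5 (0.718 to 1.052) and NUPR1 (0.759 to 1.104) included 1 and the offset, and no difference from the offset was detectable at this depth. ATF5 is overlapped on the opposite strand by NUP62, at 15.3 RPKM with clusterin and 16.5 in the control.

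**Figure D3:**
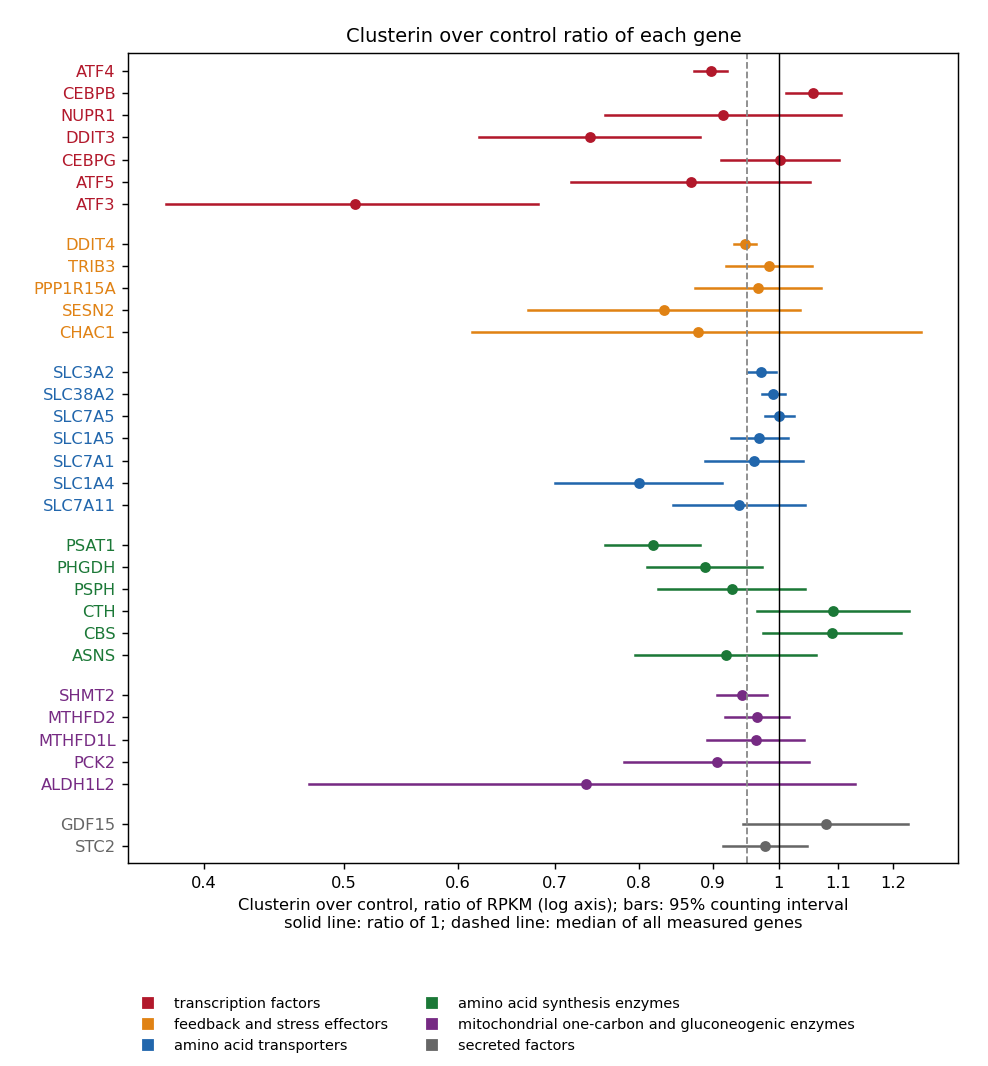
Ratio of clusterin to control RPKM for each of the 32 genes (points, log axis) with its 95% counting interval (bars), grouped by role; the solid line is a ratio of 1 and the dashed line the common offset of 0.952. ATF3, DDIT3, SLC1A4, PSAT1 and ATF4 have intervals left of the dashed line, and CEBPB, CTH, CBS, SLC7A5 and SLC38A2 have intervals right of it.

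The ratio intervals of all 5 feedback and effector genes included the offset, and their median log2 difference was -0.08. DDIT4 (REDD1), an inhibitor of mTORC1 that also answers to hypoxia and glucocorticoids, was the most abundant gene of the list, at 381 RPKM with clusterin and 402 in the control. Its ratio of 0.948 (0.931 to 0.965), from 22132 clusterin and 26921 control reads, lay at the offset, although the authors' deposited table gave it a q of 2.74e-07. TRIB3, a pseudokinase that restrains ATF4 and CHOP, stood at 19.1 RPKM with clusterin and 19.4 in the control.

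PPP1R15A (GADD34), the phosphatase subunit that restores translation after stress, stood at 9.14 RPKM with clusterin and 9.45 in the control. SESN2, a leucine sensor upstream of mTORC1, stood at 1.27 RPKM with clusterin and 1.53 in the control, with a ratio of 0.834 (0.671 to 1.034). CHAC1, a glutathione-degrading enzyme, stood at 1.12 RPKM with clusterin and 1.27 in the control from 58 clusterin and 76 control reads, and its interval of 0.614 to 1.254 was the widest among the measured genes. TRIB3, CHAC1 and SESN2, which are among the most strongly induced ATF4 targets in many cell types, thus had ratio intervals that included 1.

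Of the 7 transporters, 5 lay above the median of all genes, and their median log2 difference was -0.04. SLC3A2, the shared heavy chain, stood at 141 RPKM with clusterin and 145 in the control. SLC7A5, the light chain that imports leucine and other large neutral amino acids, stood at 87.0 RPKM with clusterin and 86.9 in the control. SLC7A11, the cystine importer that uses the same heavy chain, was far lower, at 2.02 RPKM with clusterin and 2.15 in the control. The heavy chain was thus at a higher level per length than either of these light chains in both libraries. The interval of the SLC7A5 ratio (0.978 to 1.025) held 1 and lay above the offset. Its pseudogene SLC7A5P1 stood at 14.1 RPKM with clusterin and 11.3 in the control, and SLC7A5P2 at 11.65 with clusterin and 11.99 in the control, so some reads may be shared.

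SLC38A2 (SNAT2), the sodium-coupled glutamine and alanine importer that amino acid starvation induces, stood at 135 RPKM with clusterin and 136 in the control, a ratio of 0.991 (0.974 to 1.01). SLC1A5 (ASCT2), another glutamine carrier, stood at 32.4 RPKM with clusterin and 33.4 in the control, and the arginine and lysine carrier SLC7A1 at 4.81 with clusterin and 5.01 in the control. SLC1A4 (ASCT1), a carrier of serine, alanine and cysteine, was the 1 transporter with an interval below the offset. It stood at 2.38 RPKM with clusterin and 2.97 in the control, a ratio of 0.8002 (0.6998 to 0.914) from 377 clusterin and 543 control reads, and 4.18% of 2989 genes with similar reads lay lower.

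Of the 6 enzymes of amino acid synthesis, 4 lay below the median of all genes, the 3 of serine synthesis among them, and the 2 of transsulfuration lay above it. PHGDH, the first enzyme of serine synthesis from glycolysis, stood at 12.3 RPKM with clusterin and 13.8 in the control. PSAT1, the second, stood at 16.2 RPKM with clusterin and 19.8 in the control, with a ratio of 0.818 (0.759 to 0.882) from 1175 clusterin and 1655 control reads. PSPH, the last, stood at 7.40 RPKM with clusterin and 7.98 in the control. All 3 ratios lay below the offset, but only the interval of PSAT1 did so wholly, those of PHGDH (0.8104 to 0.9745) and PSPH (0.825 to 1.043) including it. Of 2731 genes with similar reads, 1.06% lay lower than PSAT1. PSAT1 and PSPH, like ASNS and MTHFD2, have pseudogene copies in RefSeq, so their levels are uncertain in the same way.

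CBS and CTH turn homocysteine into cysteine by transsulfuration. CBS stood at 7.06 RPKM with clusterin and 6.48 in the control, a ratio of 1.09 (0.976 to 1.22). CTH stood at 7.41 RPKM with clusterin and 6.79 in the control, a ratio of 1.09 (0.966 to 1.23). Both intervals included 1 and lay above the offset, and 93.1% of genes with similar reads lay lower than CBS and 92.9% lower than CTH. ASNS, which makes asparagine and is a standard reporter of ATF4 activity, stood at 4.09 RPKM with clusterin and 4.45 in the control, a ratio of 0.919 (0.795 to 1.062).

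The ratio intervals of the mitochondrial folate enzymes and of PCK2 included the offset. SHMT2, which splits serine into glycine and a folate-bound carbon unit, was the highest, at 47.3 RPKM with clusterin and 50.1 in the control. MTHFD2, which oxidizes that unit, stood at 35.6 RPKM with clusterin and 36.9 in the control, and MTHFD1L, which releases it as formate, at 9.74 with clusterin and 10.1 in the control. The order SHMT2, MTHFD2, MTHFD1L, ALDH1L2 was the same in both libraries. The interval of SHMT2 (0.907 to 0.982) excluded 1 but held the offset. PCK2, the mitochondrial phosphoenolpyruvate carboxykinase, stood at 3.84 RPKM with clusterin and 4.23 in the control.

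The secreted factors both lay above the median of all genes. GDF15, a stress hormone of the TGF-beta family, stood at 11.2 RPKM with clusterin and 10.4 in the control, a ratio of 1.08 (0.945 to 1.23). STC2, a stanniocalcin glycoprotein, stood at 9.05 RPKM with clusterin and 9.25 in the control. The intervals of both included 1 and the offset.

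By a q under 0.05 in the authors' deposited table, 7 of the 32 genes were lower with clusterin (ATF4, ATF3, DDIT3, DDIT4, SLC1A4, PSAT1 and SHMT2) and 0 were higher. The lower share is 21.9%, beside 10.4% of all genes above 0 called lower and 1.63% called higher. Among measured genes alone, at all read numbers, 14.6% were called lower. These q values compare 2 libraries, not conditions. The intervals of 2 of the 7, DDIT4 and SHMT2, held the common offset. At a q below 0.01 the count was 5, and the share of all genes at that threshold was not computed.

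The lists of other pathway genes had medians between -0.11 and -0.03. The 21 eIF2 alpha kinases, eIF2 and eIF2B subunits and phosphatase partners had 12 members below the median of all genes and a median log2 difference of -0.07. By a q under 0.05 in the authors' deposited table, 6 of the 21 were lower and 0 higher. Here and in the lists that follow, such counts stand beside 14.6% of all measured genes lower and 1.99% higher. Those shares are over genes of all read numbers, and the q takes no account of the common offset. PPP1CC, a catalytic subunit of the eIF2 alpha phosphatase, was the lowest, at 40.6 RPKM with clusterin and 45.7 in the control. EIF2B2, a subunit of the exchange factor that phosphorylated eIF2 blocks, was the highest, at 10.99 RPKM with clusterin and 10.1 in the control. The kinase PERK (EIF2AK3) was at 6.28 RPKM with clusterin and 6.99 in the control and GCN2 (EIF2AK4) at 8.45 with clusterin and 8.87 in the control; these kinases were named after their values were seen.

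The aminoacyl-tRNA synthetases of the ATF4 programme, with the tRNA exporter XPOT, had the lowest median, -0.11. Of these 13 genes, 10 lay below the median of all genes, and 4 had ratio intervals below the offset, none above, beside 10.5% of all genes below and 12.1% above. The authors' deposited table gave 8 of the 13 a q under 0.05 as lower and 0 as higher, beside the 14.6% and 1.99% of all measured genes. Both sets of shares are over genes of all read numbers, and genes with more reads pass more easily. The counts of this list were not set beside genes with similar reads. CARS, the cysteinyl-tRNA synthetase, was the lowest at 5.63 RPKM with clusterin and 6.97 in the control, a ratio of 0.808 (0.722 to 0.904). MARS was the highest on the log2 scale, at -0.02. The 14 measured folate and nucleotide genes had a median of -0.10, with 9 below the median of all genes, and 4 lower and 0 higher by q in the authors' deposited table. Among them ATIC, an enzyme of purine synthesis, was lowest at 5.55 RPKM with clusterin and 6.75 in the control, and the folate carrier SLC19A1 highest at 7.42 with clusterin and 6.74 in the control.

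Of 21 measured genes among other reported ATF4 targets, 9 lay below and 12 above the median of all genes, with a median of -0.03. The intervals of 6 lay above the offset and those of 2 below, beside 12.1% above and 10.5% below over all genes with recovered reads. By q in the authors' deposited table, 5 were lower and 0 higher. TXNIP, an arrestin that limits glucose uptake, was the lowest, at 55.8 RPKM with clusterin and 67.9 in the control, a ratio of 0.822 (0.794 to 0.852). JDP2, a bZIP repressor, was the highest at 2.38 RPKM with clusterin and 2.08 in the control. SLC7A3, a cationic amino acid carrier, and FGF21, a stress hormone, were listed at 0 in both libraries.

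Paralogs of the listed genes, 13 of them measured, were split 7 below and 6 above the median of all genes, with 3 lower and 2 higher by q in the authors' deposited table. SESN1, the p53-responsive relative of SESN2, was the lowest, at 1.69 RPKM with clusterin and 2.28 in the control, and CEBPA the highest. The 19 measured genes of the ATF6 and XBP1 arms of the response to unfolded proteins were split 9 below and 10 above, with a median of -0.06. Of these genes, 5 were lower and 1 higher by q in the authors' deposited table. SDF2L1, an endoplasmic reticulum cochaperone, was the highest at 25.9 RPKM with clusterin and 21.4 in the control. ERN1 (IRE1 alpha), the sensor that splices XBP1, and PDIA4, a disulfide isomerase, were the lowest, both at -0.18 on the log2 scale. By ratio interval, the eIF2 list had 2 genes below the offset and 1 above, and the folate list 3 below and 2 above. The paralogs and the ATF6 and XBP1 genes each had 2 below and 2 above. These counts stand beside 10.5% of all genes with recovered reads below and 12.1% above. No measured gene of these 6 lists passed 1.5-fold.

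**Figure D4:**
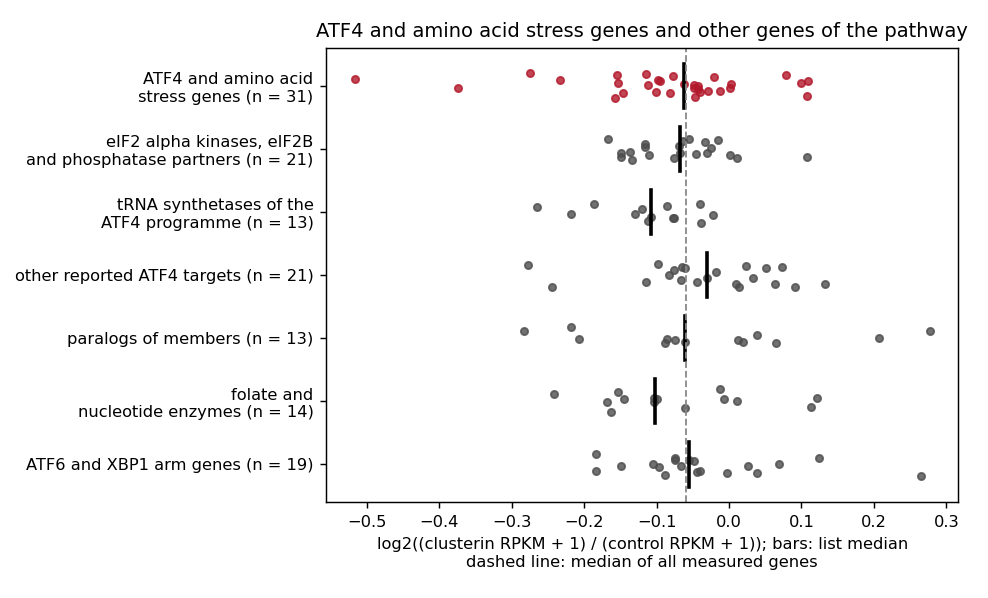
Difference log2((clusterin RPKM + 1)/(control RPKM + 1)) of each measured gene (points) in the ATF4 and amino acid stress list (red) and in 6 other lists (grey), with list medians as bars and the median of all measured genes as a dashed line. The medians of the tRNA synthetases (-0.11) and folate genes (-0.10) lie left of the dashed line and that of the other ATF4 targets (-0.03) right of it, while all lists overlap.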

How the data were processed

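Both libraries were of RNA enriched on oligo(dT) beads, per the labels' protocols. The submitters' processing notes name Bowtie, TopHat and Cuffdiff with build hg19. No source used here gives their versions, order or strand setting. The starts of 30 of the 32 genes in the table lay within 2000 bp of RefSeq's GRCh38 positions although the notes name hg19, so no coordinate of the table is printed. The authors deposited 1 level per gene and library, in a unit the header does not name. The deposited values behave as RPKM: with a single total assumed for each library, the levels of 482 of 523 small RNA genes convert to whole reads in both libraries (tolerance 0.02). The authors deposited p-values and q-values as well. The p-values equalled the Audic-Claverie p of those reads within 2% for 474 of the 482 genes, and were used with whole-number rounding to find each gene's transcript length and reads (20429 of 20642 genes above 0). The reads of SLC7A5 are known only to within 4.32%. With 1 library per group no test was made. Intervals are exact Clopper-Pearson intervals at 95%; PCR duplicates cannot be recognised in these values, so the intervals cover counting error only. A log2 difference uses a pseudocount of 1 RPKM unless said otherwise, which understates the change of low genes. The genes and lists were chosen with earlier results of these data known. All 32 genes are named, and from the 6 other lists the highest and lowest measured gene. The q threshold of 0.05 was chosen here. Other pseudocounts, filters and scalings were tried. Python 3.11.15, scipy 1.17.1 and pandas 2.3.3 were used, and the recovery step was tested on simulated data.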

Additional observations from a re-analysis of the deposited data

How the results depend on the processing

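The count of genes at least 2-fold apart was 0 under every alternative tried. At 1.5-fold it was 1 with a pseudocount of 0.1 RPKM and 1 with no pseudocount, ATF3 in both cases. The median log2 difference of the measured genes was -0.038 with a pseudocount of 5, -0.0077 with the control rescaled so that the median of all genes was 0, and -0.0108 after quantile normalization. Over all measured genes it was -0.036 with a pseudocount of 5 and -0.0031 after quantile normalization. The number below the median of all genes was 20 of 32 with no filter and 16 or 17 of 31 otherwise, except with a mean of at least 5 RPKM. There it was 8 of 22, with a median log2 difference of -0.043 for the listed genes and -0.057 for all genes. The near-even split thus did not hold without the genes under that level. With the control rescaled, 16 of 31 lay below 0 and 15 above, and with quantile normalization 17 and 14. ATF3, DDIT3, SLC1A4, PSAT1 and ATF4 stayed below 0 under each pseudocount and scaling in which they passed the filter. CEBPB, CTH, CBS, GDF15, SLC7A5 and CEBPG stayed above 0 in the same way. As deposited, SLC7A5 was only 0.0015 and CEBPG only 0.0029 above 0. TRIB3, PPP1R15A, SLC7A1, SLC1A5, SLC38A2, MTHFD1L and STC2 stood below 0 as deposited and above 0 under both the rescaled control and quantile normalization. SLC3A2 and MTHFD2 turned with the rescaled control alone, and SLC7A11 with quantile normalization alone. With the stricter motif, 5 genes held it in place of 9. The version with no pseudocount was chosen after seeing the data. No paired analysis was possible because each group holds 1 library, and no replicate could be left out. ATF3 and CHAC1, with 68 and 58 clusterin reads, are the measured genes that depth limits most.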
